A study of Mus musculus with 12 samples.

Results

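Transcription factors that set the fate of developing T cells were followed on 12 Affymetrix mouse arrays of thymocytes from reaggregate thymic organ culture (RTOC), in which thymocytes are put back together with thymic stroma, on day 6. The 9 genes were Gata3, Runx1, Runx3, Tcf7, Lef1, Satb1, Tbx21, Ets1 and Ets2, taken by their platform gene symbol. They had 8 of the 12422 probe sets that are not controls, for 6 genes: Lef1 and Ets1 had 2 probe sets each, and Gata3, Runx1, Satb1 and Ets2 had 1 each. Runx3, Tcf7 and Tbx21 had no probe set under their symbols in the annotation used and were not analysed here. No probe set shared between several genes held a member.

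The arrays fall into 3 groups of 4. HY_high held thymocytes with the transgenic HY T cell receptor, cultured with Smcy peptide at 1e-05 M. HY_low held thymocytes with the same receptor and Smcy peptide at 1e-07 M. OT1 held thymocytes with the transgenic OT1 receptor, with no peptide named. Both receptors are restricted by class I molecules, HY to a male antigen encoded by Smcy and OT1 to an ovalbumin peptide. Strain, age, the number of animals, the purity of the cells and whether replicates were separate cultures are not stated in the labels, so p-values measure only the spread between these arrays. The titles of HY_high and HY_low arrays also carry different, unexplained letters, so peptide dose cannot be told apart from what these mark. HY_low and OT1, and HY_high and OT1, differ in receptor and peptide together.

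As background, T cell identity in the thymus rests on a small set of DNA-binding proteins. Tcf7 (TCF-1) and Lef1 are HMG-box partners of beta-catenin that act from the earliest T cell stages, Gata3 favours the CD4 lineage, and Runx1 and Runx3 silence Cd4 and support the CD8 lineage. Satb1 folds chromatin at thymocyte genes, Ets1 and Ets2 bind next to Runx proteins at T cell enhancers, and Tbx21 (T-bet) drives effector genes in CD8 T cells and natural killer (NK) cells.

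The values are linear intensities with a lowest value of 1, which 15.3% of all values took, and array medians lay between 3.33 and 3.97. Levels of different probe sets are not compared with each other, because probes differ in brightness. Of the 12422 probe sets, 8695 were bright enough to be tested with limma, all 8 of these among them. Arrays with the same number (1 to 4) in different groups were alike: all 12 same-number pairs had positive correlations of their deviations from the group means, from 0.341 to 0.593. Values from limma with the array number as a blocking term therefore stand beside those without it wherever a call depends on it.

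No lineage factor probe set passed an adjusted p of 0.05 without the block in any comparison, and Satb1 alone passed with it, as lower in HY_high than in OT1. By limma, 0 of 8 probe sets were called for HY_high against HY_low, where 0.023% of all tested probe sets were. The count was 0 of 8 for HY_low against OT1, where 0.023% of all were called, and 0 of 8 for HY_high against OT1, where 0.173% were. All 8 had the same adjusted p in a comparison, 0.9997 for HY_high against HY_low, 0.99996 for HY_low against OT1 and 0.9999 for HY_high against OT1. An unadjusted p under 0.05 was found for 0 of the 8 in each comparison, beside 2.96%, 2.65% and 4.08% of all tested probe sets. With the number as a block, 0, 0 and 1 of the 8 were called, beside 0.345%, 0.092% and 1.36% of all, and 0.23% of all were called as lower in the last. An unadjusted p under 0.05 with the block was found for 2, 1 and 2 of the 8, beside 11.1%, 8.37% and 11.7%. No probe set of the 8 parted any pair of groups without overlap, which 2.02%, 1.63% and 2.53% of all did. The median log2 difference of the 8 was -0.17 for HY_high minus HY_low, 0.14 for HY_low minus OT1 and 0.04 for HY_high minus OT1, where the median of all tested probe sets was 0.01, 0.01 and 0.02.

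**Figure D1:**
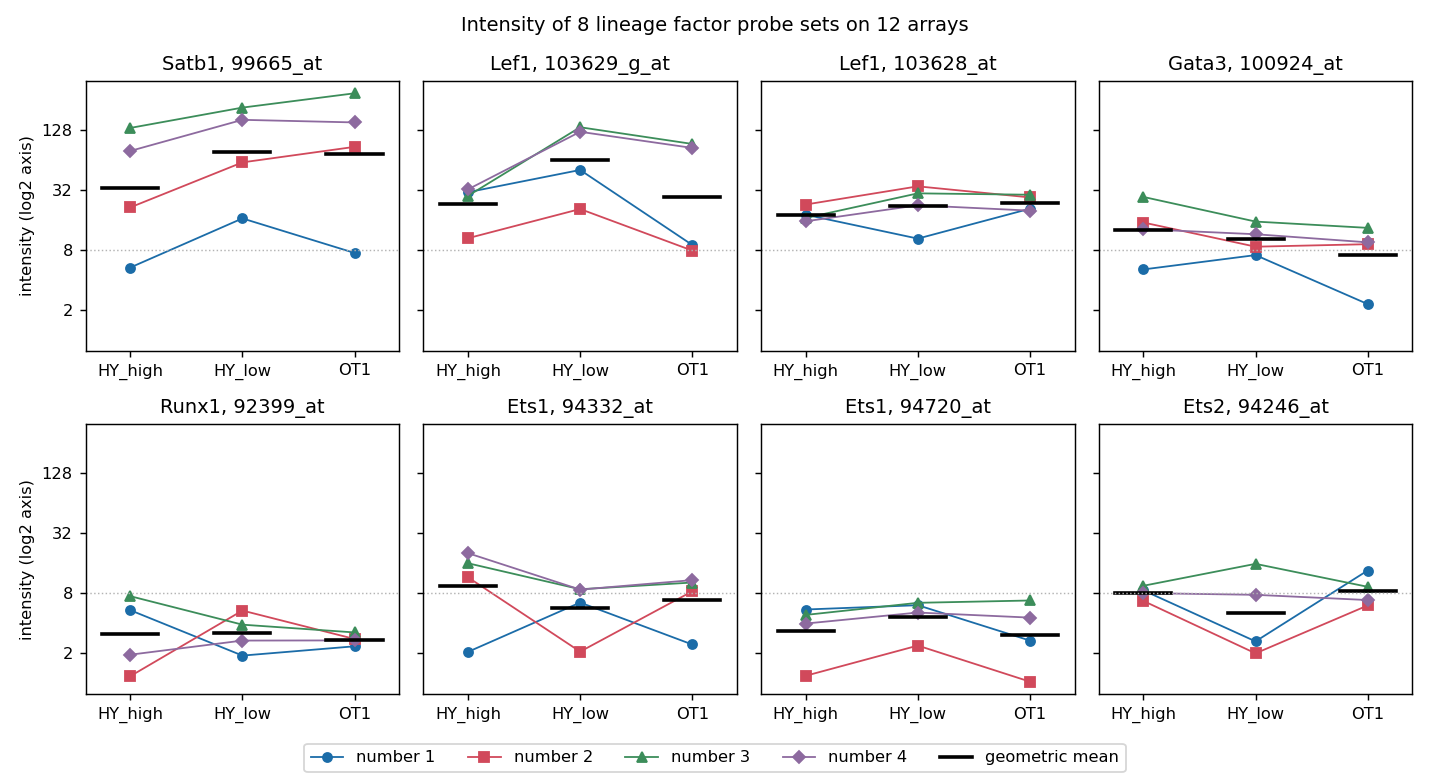
Each panel plots the intensity of 1 probe set (log2 axis) on the arrays of HY_high, HY_low and OT1. Points of the same number are joined, bars are geometric means of 4 arrays and the dotted line is an intensity of 8. For Satb1 all 4 lines are at their lowest in HY_high, while the points of each group spread widely and overlap those of the other groups.

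Satb1, the chromatin organiser, was the member with the widest spread between arrays. Its intensities were 5.30, 21.3, 133 and 78.2 on HY_high arrays 1 to 4. On HY_low arrays 1 to 4 they were 16.5, 60.1, 213 and 160. On OT1 arrays 1 to 4 they were 7.42, 85.9, 296 and 151. In every group array 1 was the lowest and array 3 the highest, and the groups overlapped widely. Within each number HY_high was the lowest of the 3 groups.

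The geometric mean of Satb1 was 32.9 in HY_high and 76.2 in HY_low (log2 SD 2.08 and 1.67, n = 4 each), a log2 difference of -1.21 ± 1.10 SE that did not pass without the block. Within numbers 1 to 4 the differences were -1.64, -1.50, -0.68 and -1.04. Single arrays moved the difference widely, to -0.33 if HY_high array 1 was left out and -1.88 if HY_high array 3 was. Leaving out HY_low array 1 gave -1.95, and leaving out HY_low array 3 gave -0.72. With the block the SE shrank to 0.27 and the adjusted p was 0.0726, short of the threshold. Against OT1, at a geometric mean of 73.1 (log2 SD 2.32), the HY_high level was lower by a log2 difference of -1.15 ± 1.10, short of the threshold without the block. That value became -0.27 when HY_high array 1 was dropped and -1.82 when HY_high array 3 was. It became -2.25 when OT1 array 1 was dropped and -0.48 when OT1 array 3 was, below 0 each time. Within the numbers the differences were -0.49, -2.02, -1.15 and -0.95, and with the block Satb1 fell in HY_high (SE 0.27, limma adjusted p = 0.0470). HY_low and OT1, at 76.2 and 73.1, did not differ beyond their spread, with a log2 difference of 0.06 ± 1.10, above 0 in 2 of 4 numbers. Without OT1 array 1 that difference was -1.04, and it passed no test in either case. The comparisons of HY_high share its 4 arrays, so they are not separate evidence on Satb1.

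The block call for Satb1 lay close to the threshold. Leaving out the arrays numbered 1 in all groups gave an adjusted p of 0.0139 (limma with block, log2 difference -1.37). It was 0.219 without number 2 (-0.86), 0.255 without number 3 (-1.15) and 0.160 without number 4 (-1.22). The call was lost each time. Leaving out number 3 or 4 moved the difference little but raised its SE from 0.27 to 0.35 and 0.34. With values under 8 raised to 8 the adjusted p was 0.222 (-1.03), and with no filter on dim probe sets 0.247.

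Of the variance of Satb1 over the 12 arrays, 88.0% lay between the numbers and 9.06% between the groups, beside medians of 52.8% and 10.7% over all tested probe sets. By number its geometric means were 8.65, 47.9, 203 and 124. The 3' to 5' ratio of control probe sets is a sign of RNA quality. This ratio favoured the 3' end on all 12 arrays, at log2 values of at least 2.95 for Gapdh and 2.02 for actin. For Gapdh its log2 value was 4.57 to 4.87 for number 1, 5.60 to 6.26 for number 2, 4.69 to 5.48 for number 3 and 2.95 to 3.27 for number 4, with numbers 1 and 3 overlapping. For actin it was 2.59 to 3.60, 2.02 to 2.99, 2.74 to 3.39 and 2.15 to 2.54 for numbers 1 to 4, which overlapped more. HY_high array 1, where Satb1 was at its lowest, had the highest actin ratio of the 12 arrays, 3.60. The next highest, 3.39 each, were on OT1 array 3 and HY_low array 3, where Satb1 was at its highest, 296 and 213. On OT1 array 1, where Satb1 was 7.42, the actin ratio was 2.60. The part of RNA quality in the Satb1 values was not tested.

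The promoter window of the outermost Satb1 start is printed because Satb1 was the only member called, for HY_high against OT1 with the block. It runs from 250 bases before to 50 after the RefSeq start (build GRCm38.p6, minus strand, chr17:51833241-51833540), inside and upstream of the gene Satb1 on chromosome 17 (51736187 to 51833290). Motifs of the member families were searched on both strands and are in capitals where found. The Runx motif was searched as TGTGGT and its reverse complement. For the Gata family the letters were AGATAA. The letters searched for Ets proteins were CCGGAA. Tcf7 and Lef1 share a motif that was searched as CTTTGA. No match to any of these occurs in this window or in the other 4 Satb1 windows, which draws nothing about the factors. The Runx1 window of the outermost start (minus strand, chr16:92826025-92826324) is shown beside it as a measured member whose own family's motif occurs there on the opposite strand, at bases 279 to 284 and 287 to 292 of the window.
Satb1: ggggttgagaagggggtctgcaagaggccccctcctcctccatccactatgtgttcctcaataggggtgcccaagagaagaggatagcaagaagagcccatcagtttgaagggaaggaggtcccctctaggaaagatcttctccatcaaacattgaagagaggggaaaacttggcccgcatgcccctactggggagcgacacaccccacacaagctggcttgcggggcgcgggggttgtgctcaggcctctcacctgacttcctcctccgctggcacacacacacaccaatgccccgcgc
Runx1: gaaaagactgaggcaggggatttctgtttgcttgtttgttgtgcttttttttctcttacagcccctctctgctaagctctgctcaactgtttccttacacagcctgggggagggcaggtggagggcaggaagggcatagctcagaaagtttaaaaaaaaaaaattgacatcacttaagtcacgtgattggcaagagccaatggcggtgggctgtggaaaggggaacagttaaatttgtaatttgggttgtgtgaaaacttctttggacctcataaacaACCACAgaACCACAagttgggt
Of the 18 windows that RefSeq's table holds for 8 of the 9 genes, 2 hold the Runx motif (both with 2 matches, in Runx1 and Runx3), 1 the Gata motif, 3 the Ets motif and 1 the Tcf7 and Lef1 motif. Among all 32851 windows of this length the shares were 16.8%, 11.2%, 14.9% and 16.0%. A match describes letters and is not a binding site.

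Lef1 was read by a pair of probe sets listed under the same sequence record, and they gave different patterns. On the first (103629_g_at) the intensities were 30.2, 10.4, 27.8 and 32.3 on HY_high arrays 1 to 4. HY_low arrays 1 to 4 had 50.4, 20.5, 135 and 122, and OT1 arrays 1 to 4 had 8.93, 7.84, 92.0 and 83.9. HY_low was the highest group within every number. OT1 split by number, low on arrays 1 and 2 and high on arrays 3 and 4. HY_high therefore lay above OT1 in 2 numbers and below it in 2.

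The geometric mean of Lef1 on this probe set was 23.0 in HY_high and 64.2 in HY_low, which is -1.48 ± 0.80 SE on the log2 scale (n = 4 each). The adjusted p with the block was 0.162 by limma. It was lower within 4 of 4 numbers, by differences from -2.28 to -0.74. HY_low stood above OT1, at 64.2 and 27.1, by 1.24 ± 0.80 (adjusted p 0.382 by limma with the block), higher within 4 of 4 numbers and by differences from 0.54 to 2.50. Without OT1 array 1 it was 0.71 and without OT1 array 2 it was 0.65. These comparisons share the HY_low arrays. HY_high and OT1, at 23.0 and 27.1, had a log2 difference of -0.23 ± 0.80, which passed no test and turned to 0.35 without OT1 array 3.

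The other Lef1 probe set (103628_at) varied less. It had 17.9, 22.7, 16.6 and 15.4 on HY_high arrays 1 to 4, 10.3, 34.5, 29.4 and 22.3 on HY_low arrays and 20.6, 26.8, 28.5 and 19.7 on OT1 arrays. The groups overlapped. Its geometric means were 18.0 in HY_high, 22.0 in HY_low and 23.6 in OT1, neighbours that did not differ beyond their spread. The log2 difference of HY_high was -0.29 ± 0.43 against HY_low and -0.39 ± 0.43 against OT1, the second lower within 4 of 4 numbers and neither past the test. For HY_low minus OT1 it was -0.10 ± 0.43, of opposite sign to the first probe set, and 0.26 without HY_low array 1. A higher Lef1 level in HY_low than in OT1 therefore rests on 1 of its 2 probe sets.

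**Figure D2:**
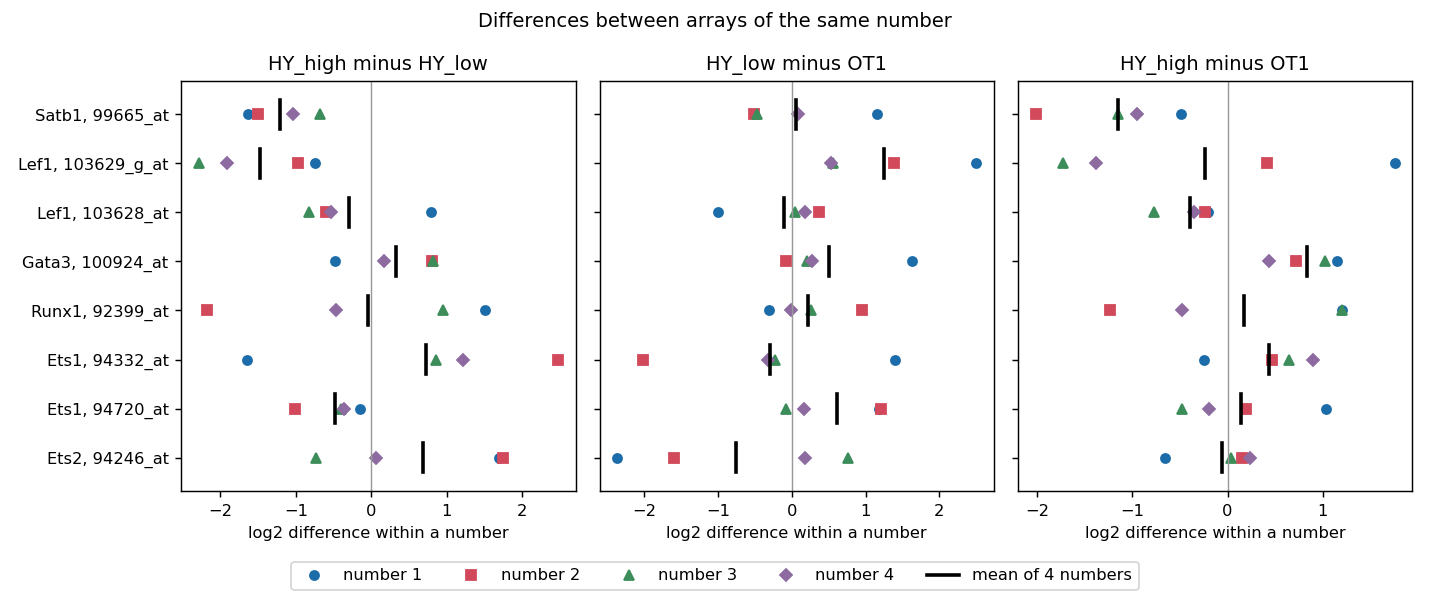
Log2 differences between arrays of the same number (points, 4 per probe set) and their mean (bars), for HY_high minus HY_low, HY_low minus OT1 and HY_high minus OT1. Satb1 lies below 0 in all 4 numbers against both HY_low and OT1, and the first Lef1 probe set lies below 0 in the first comparison and above 0 in the second.

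Gata3, the factor of the CD4 lineage, had 5.07, 15.0, 27.0 and 12.8 on HY_high arrays 1 to 4. HY_low arrays 1 to 4 had 7.06, 8.57, 15.3 and 11.4, and OT1 arrays 1 to 4 had 2.28, 9.08, 13.2 and 9.48. Array 1 was the lowest and array 3 the highest in each group, and HY_high lay above OT1 within every number. The geometric means ordered as 12.7 in HY_high, 10.1 in HY_low and 7.14 in OT1. The log2 difference of HY_high minus OT1 was 0.84 ± 0.59 SE (adjusted p 0.334 by limma with the block), with 1.15, 0.72, 1.03 and 0.44 within the numbers. The steps between neighbours were smaller, at 0.33 ± 0.59 for HY_high minus HY_low and 0.51 ± 0.59 for HY_low minus OT1, each above 0 in 3 of 4 numbers. Without HY_high array 3 the first was -0.03, and without OT1 array 1 the second was -0.04. The difference of HY_high minus OT1 was 0.29 without OT1 array 1 and 0.55 with values under 8 raised to 8. It was 1.28 when HY_high array 1 was dropped and 0.47 when HY_high array 3 was.

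Runx1, the Runx protein of early thymocytes, was dim and below 8 on all 12 arrays. It had 5.36, 1.17, 7.41 and 1.92 on HY_high arrays 1 to 4, 1.88, 5.32, 3.84 and 2.66 on HY_low arrays and 2.33, 2.76, 3.21 and 2.67 on OT1 arrays. The HY groups enclosed the narrow range of OT1. Geometric means were 3.07, 3.18 and 2.72 in HY_high, HY_low and OT1, and the log2 differences of -0.05, 0.22 and 0.17 (SE 0.56) were smaller than their errors. Values this near the lowest intensity cannot show whether Runx1 changed.

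Ets1, which works with Runx proteins at T cell enhancers, was also read by 2 probe sets, both dim. The brighter (94332_at) had 2.05, 11.5, 15.9 and 20.0 on HY_high arrays 1 to 4, 6.40, 2.06, 8.70 and 8.63 on HY_low arrays and 2.43, 8.29, 10.2 and 10.7 on OT1 arrays. HY_high arrays 2, 3 and 4 were above every HY_low and OT1 array, and HY_high array 1 was the lowest of all 12. Geometric means were 9.29 in HY_high, 5.61 in HY_low and 6.85 in OT1. The log2 difference of HY_high was 0.73 ± 0.71 against HY_low and 0.44 ± 0.71 against OT1, above 0 in 3 of 4 numbers each. The first became 1.45, 0.47 and 0.36 when HY_high array 1, 3 or 4 was dropped, and 0.25 when HY_low array 2 was. The second became 1.17, 0.18 and 0.07 when HY_high array 1, 3 or 4 was dropped, and -0.06 when OT1 array 1 was. HY_low minus OT1 was -0.29 ± 0.71. The dimmer Ets1 probe set (94720_at) was between 1.03 and 6.71 on all arrays. Its geometric means were 3.32 in HY_high, 4.63 in HY_low and 3.02 in OT1, so HY_high stood below HY_low by -0.48 ± 0.63, opposite in sign to the brighter one, and lower within 4 of 4 numbers, but 0.02 without HY_high array 2.

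Ets2, a relative of Ets1 that growth signals induce, had 8.47, 6.64, 9.43 and 7.96 on HY_high arrays 1 to 4. HY_low arrays 1 to 4 had 2.61, 1.98, 15.6 and 7.65, and OT1 arrays had 13.4, 5.98, 9.21 and 6.78. HY_low spread most, with its arrays 1 and 2 below and its array 3 above all other arrays. Geometric means were 8.06 in HY_high, 4.99 in HY_low and 8.41 in OT1. The log2 differences of 0.69 ± 0.58 for HY_high minus HY_low, -0.75 ± 0.58 for HY_low minus OT1 and -0.06 ± 0.58 for HY_high minus OT1 did not pass. Without HY_low array 2 the first was 0.25 and the second -0.31, and without HY_low array 3 they were 1.24 and -1.30. The first became -0.16 and the second 0.00 with values under 8 raised to 8.

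**Figure D3:**
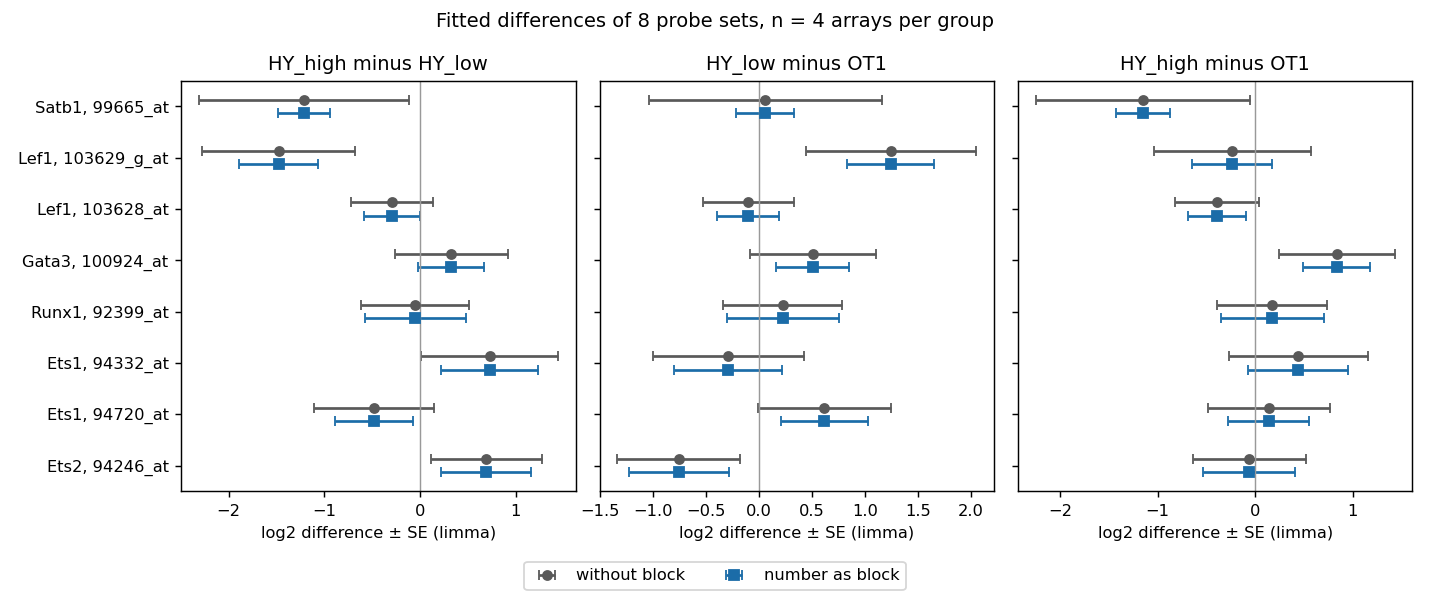
Log2 differences with their SE from limma without a block (circles) and with the array number as a block (squares), n = 4 arrays per group, for HY_high minus HY_low, HY_low minus OT1 and HY_high minus OT1. The block leaves each difference as it is and shortens the bars most for Satb1, where the SE goes down to 0.27.

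Seen within numbers, 3 of the 8 probe sets (Satb1, the first Lef1 and the dimmer Ets1) were lower in HY_high than in HY_low within 4 of 4 numbers, as were 9.76% of all tested probe sets, and 0 were higher in all 4, beside 9.81%. For HY_low against OT1, 1 (the first Lef1) was higher in 4 of 4 numbers, beside 9.73%, and 0 were lower, beside 7.38%. For HY_high against OT1, 2 (Satb1 and the second Lef1) were lower, beside 8.74%, and 1 (Gata3) was higher, beside 10.4%. With 8 probe sets and a pair for each of Lef1 and Ets1, these counts describe the members and no more.

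Partners of these factors gave no call. The list held Cbfb, the common subunit of Runx proteins, Zfpm1 (FOG-1), which binds Gata factors, beta-catenin (Ctnnb1), the partner of Lef1 and Tcf7, Groucho corepressors of the Tle family, and corepressors that work with them. Of 9 tested genes, 0 rose and 0 fell in each comparison, with or without the block. Ctnnb1 had geometric means of 152 in HY_high and 53.1 in HY_low, or 1.52 ± 1.07 on the log2 scale (adjusted p 0.0726 by limma with the block), above 0 within 4 of 4 numbers. Against OT1, at 75.2, its HY_high level differed by 1.02 ± 1.07. Cbfb, at 1715 in HY_high and 1305 in HY_low, differed by 0.39 ± 0.57, and Tle1 and Tle4, both dim, by -0.86 and 0.56. Zfpm1 was 18.0 in HY_high, 19.5 in HY_low and 11.3 in OT1, with 0.67 ± 0.41 for HY_high minus OT1 and 0.79 ± 0.41 for HY_low minus OT1, the second of these above 0 in 4 of 4 numbers. Tle1 and Tle4 differed by -0.74 and 0.58 for HY_high minus OT1. Tle5, a short Tle family protein, and Hdac1, a histone deacetylase, differed by 0.23 and 0.25 for HY_low minus OT1. Ctnnb1 differed by -0.50 for HY_low minus OT1. Median log2 differences of the list were 0.09, 0.12 and 0.34 for HY_high minus HY_low, HY_low minus OT1 and HY_high minus OT1. Within 4 of 4 numbers 1, 1 and 1 of the 9 were higher, beside 9.81%, 9.73% and 10.4% of all tested probe sets. In the same way 1, 0 and 0 were lower, beside 9.76%, 7.38% and 8.74%.

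Other regulators of the T lineage likewise gave 0 calls of 16 tested genes in each comparison. Their median log2 differences were 0.39, 0.07 and 0.32 for HY_high minus HY_low, HY_low minus OT1 and HY_high minus OT1, with 10, 9 and 12 of the 16 above 0. Within 4 of 4 numbers 2, 3 and 3 of the 16 were higher, beside 9.81%, 9.73% and 10.4% of all tested probe sets. In the same way 4, 2 and 2 were lower, beside 9.76%, 7.38% and 8.74%. The genes named here had the smallest p of the list, which favours such agreement. Notch1, the receptor that commits progenitors to the T lineage, had 127 in HY_high and 231 in HY_low (log2 difference -0.86 ± 0.47). Dtx1, a gene that Notch induces, had 81.5 and 172 (-1.08 ± 0.59). Both were lower in HY_high within 4 of 4 numbers without passing (adjusted p 0.247 and 0.220 by limma with the block). Nfatc1, a factor that calcium signals activate, had 20.1 in HY_high and 9.78 in HY_low (1.04 ± 0.48), and Elf1, an Ets family member, had 9.69 and 5.53 (0.81 ± 0.54), both above 0 in 4 of 4 numbers. Gfi1, a zinc finger repressor, had 21.3 in HY_high and 10.6 in OT1 (1.01 ± 0.56), and Nfatc1 differed by 0.64 ± 0.48 between these groups. Notch3, a second Notch receptor, had 5.67 in HY_low and 2.76 in OT1 (1.04 ± 0.56), and Notch1 differed by 0.59 ± 0.47 between these groups. Eomes, the T-box relative of Tbx21, was 1.83 in HY_low and 5.71 in OT1 (-1.64 ± 0.47, adjusted p 0.207 by limma with the block). It was 2.68 in HY_high (-1.09 ± 0.47), and all of these values are below 8. Myb, a factor of double-positive thymocytes, was 15.7 in HY_high, 19.1 in HY_low and 5.31 in OT1, with differences from OT1 of 1.56 ± 0.85 and 1.85 ± 0.85, above 0 in 4 of 4 numbers each (limma adjusted p with the block 0.0673 for HY_high and 0.123 for HY_low).

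Among textbook target genes of these factors, 19 tested, Cd8b1 was the only call, lower in HY_high than in HY_low and OT1. Cd8b1, the CD8 beta chain, whose enhancers Runx proteins and Satb1 act on in mice, had 8.18, 1, 6.18 and 8.26 on HY_high arrays 1 to 4, against 172, 698, 1042 and 1374 on HY_low arrays and 219, 835, 1032 and 1219 on OT1 arrays. The HY_high values lay near the lowest intensity, 1 of them at it, so its size is given as a bound. With the 2 HY_high values under 8 raised to 8, the geometric mean of Cd8b1 was at least 79.4-fold lower in HY_high than in HY_low. Limma gave an adjusted p of 0.000252 on the unraised values, a call that 0.0115% of all tested probe sets gave in this direction. The geometric mean was at least 85.4-fold lower in HY_high than in OT1 (limma adjusted p = 6.8e-05, beside 0.0345% of all). Both bounds are on means and leave out the spread between arrays, and the gap was narrowest within number 1. Cd8a, the alpha chain, was 157 in HY_high, 339 in HY_low and 340 in OT1, lower in HY_high within 4 of 4 numbers against each without passing. Rag1, a recombinase gene that Satb1 helps to keep active in mouse thymocytes, was 2.58 in HY_high, 7.00 in HY_low and 6.98 in OT1, dim throughout (-1.44 ± 0.48 on the log2 scale against each, not past the test). The receptor gene Il7r was 75.2 in HY_high, 25.8 in HY_low and 79.4 in OT1, and the chemokine receptor gene Ccr7 was 5.65 in HY_high, 15.0 in HY_low and 9.81 in OT1. Gzmb, a granule protease, and Prf1, perforin, had log2 differences of -0.95 and 0.58 for HY_low minus OT1. The list's medians were -0.10, 0.05 and -0.01 for HY_high minus HY_low, HY_low minus OT1 and HY_high minus OT1. Within 4 of 4 numbers 3, 3 and 1 of the 19 were higher, beside 9.81%, 9.73% and 10.4% of all tested probe sets. In the same way 5, 1 and 2 were lower, beside 9.76%, 7.38% and 8.74%.

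**Figure D4:**
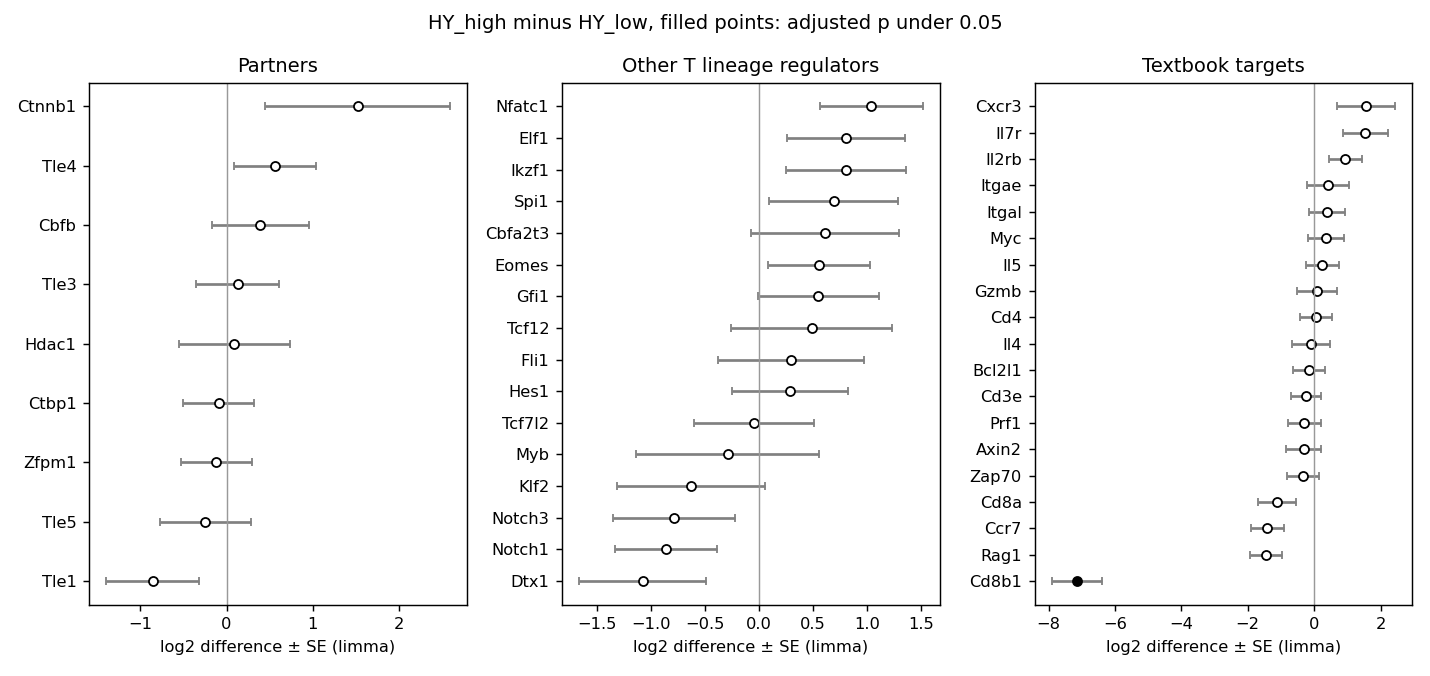
Log2 differences of HY_high minus HY_low with their SE (limma, n = 4 arrays per group) for partners, other T lineage regulators and textbook targets of the lineage factors, 1 probe set per gene. Only Cd8b1 passes an adjusted p of 0.05 (filled point), drawn at its fitted -7.15, which exceeds the bound of -6.31 reached with HY_high values under 8 raised to 8.

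The probe sets nearest in pattern to each member were found by the root mean square difference of mean-centred log2 values over the 12 arrays, which share numbers and therefore much of their variation. For Satb1 these were Rpl10a (0.78), Uqcrc2 (0.79) and Kif5b (0.89), where Satb1's own deviation from its mean was 1.85. For the first Lef1 probe set they were Lipa (0.57), Akap8l (0.63) and Cd6 (0.63), against its own 1.39. For Gata3 they were Senp6 (0.24), Ppp3ca (0.31) and Smad4 (0.34), against 0.86, and for the brighter Ets1 probe set Smap1 (0.37), Rala (0.43) and Gtf2i (0.44), against 1.07. Runx1 was nearest to Ppp2r1b (0.44), Ankhd1 (0.50) and Gnaq (0.52), against 0.72, and Ets2 to Maip1 (0.31), Rab3ip (0.38) and Ginm1 (0.40), against 0.82.

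Markers of the cells in the cultures are given by group. Whether they moved with the member values was not tested. Of 7 T cell markers measured, 6 were above 8 on all arrays, and their summed intensity ran from 823 to 1321 in HY_high, 969 to 2105 in HY_low and 1013 to 1750 in OT1. Like Satb1, 3 of the 7 had their lowest geometric mean in HY_high: Thy1 at 234, 555 and 541, Cd2 at 95.5, 203 and 197, and Cd5 at 36.1, 61.1 and 50.4 in HY_high, HY_low and OT1. The other 4 did not, with Cd3e at 48.0, 57.2 and 41.5, Cd3g at 231, 273 and 184, Cd3d at 98.3, 101 and 87.3, and Ptprc at 98.6, 69.1 and 96.5 in HY_high, HY_low and OT1. These counts have no share of all tested probe sets beside them and describe the markers only. Of the coreceptor genes that mark double-positive cells, Cd4 lay between 2.16 and 9.19 on all arrays and Cd8a between 85.4 and 1084. A dim Cd4 probe set does not show whether the cells lacked Cd4. Summed double-positive markers ran from 111 to 239 in HY_high, 306 to 1818 in HY_low and 516 to 1504 in OT1. They came mostly from Cd8b1 and Cd8a in HY_low and OT1, and from Cd8a in HY_high. The 4 mature T cell markers measured summed to between 90.4 and 287 in HY_high, 66.9 and 144 in HY_low and 83.0 and 239 in OT1. Of these, Il7r had its lowest geometric mean in HY_low, and Ccr7, Klf2 and S1pr1 had theirs in HY_high. In RNA from many cells, fewer cells of a type and less RNA per cell cannot be told apart.

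Markers of other cells were mostly dim. Of 14 macrophage and dendritic cell markers, 7 were below 8 on all arrays, and their sum ran from 151 to 577 in HY_high, 142 to 614 in HY_low and 119 to 324 in OT1, chiefly from Ctss (geometric means 296 in HY_high, 234 in HY_low and 148 in OT1). Lyz2 was at the lowest value, 1, on 3 arrays, Adgre1 on 5 and Itgam on 6. The 6 B cell markers summed to between 33.8 and 190 in HY_high, 23.5 and 46.0 in HY_low and 22.5 and 62.7 in OT1. Blk made up most of the highest HY_high sum, reaching 153 at its highest against a HY_high geometric mean of 14.6. The 3 NK cell markers, chiefly Klrd1, summed to between 95.6 and 325 in HY_high, 11.6 and 116 in HY_low and 50.8 and 209 in OT1, while Ncr1 did not exceed 3.62. The 9 stromal markers summed to between 42.4 and 63.5 in HY_high, 47.5 and 78.4 in HY_low and 40.0 and 65.6 in OT1, with Epcam and Foxn1 at 1 on 4 arrays each. The 2 erythroid markers did not sum above 17.6 and the 6 neutrophil markers not above 19.8. The part of these cells in the Satb1, Lef1 and Gata3 values was not tested.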

How the data were processed

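Linear intensities of 12488 probe sets on 12 arrays were used as deposited by the authors. Their background correction, summary and scaling are not stated in the labels or headers, nor is a genome build. The number of arrays limits the precision. After leaving out 66 control probe sets, log2 intensities of the other 12422 were tested if their mean lay above the 30th percentile of such means, an intensity of 1.76, which kept 8695. All arrays entered a single limma model (version 3.58.1 under R 4.3.3) of 3 group means, which left 9 residual degrees of freedom, or 6 once the number was a block, with moderation with an intensity trend and Benjamini-Hochberg adjustment over all tested probe sets, two-sided. The number was used as a block because all same-number pairs correlated by over 0.341, other pairs by -0.40 to 0.163, and 12 of 12 arrays correlated best with their own number. The labels do not state this pairing. Genes came from the platform annotation, with current symbols by gene ID, and the brightest probe set stood for a gene in lists. Named were all member probe sets, the 4 smallest p of each list and the 3 nearest patterns of each member gene's brightest probe set, if it spanned over 2 log2 units. Members and lists were chosen with earlier results of these data known. Alternatives were other filters, floors, scalings, weights, samples and the block. The fit without the block was tested on simulated data that held no effect of the number, for HY_high minus HY_low. The fit with the block was not tested in this way. Promoter windows come from RefSeq (GRCm38.p6).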

Additional observations from a re-analysis of the deposited data

Results flagged for a closer look

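On the first Lef1 probe set (103629_g_at), HY_high array 2 read 10.43 and stood far below the other 3 HY_high arrays, which lay between 27.8 and 32.3. The gap to the nearest was 0.867 of the group's range on the log2 scale, above Dixon's 95% critical value for 4 values. It was the only such array among 24 groups of 4 values examined, and chance flags about 1 in 20 groups. The arrays numbered 2 were also the lowest of the first Lef1 probe set in HY_low and OT1, at 20.5 and 7.84.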

How the results depend on the processing

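Of 705 member differences recomputed under alternatives, 245 were identical, many because the setting (such as the block, or an array of the third group left out) cannot move a difference. Of the other 460, 412 kept their direction and 48 changed sign. In all, 4 came to pass and 0 ceased to pass. The lead value, Satb1 lower in HY_high than in OT1, kept its direction in all settings, at log2 differences of -2.25 to -0.27, and passed only with the replicate block. The member calls for HY_high minus OT1 were then 1, also 1 without number 1 in all groups, 1 after quantile normalization and 1 after scaling to one median, with log2 differences of -1.15, -1.37, -1.28 and -1.19. The settings that join the block with another change were chosen after seeing the data. Over all probe sets, calls for HY_high minus HY_low numbered 2, but 30 with the replicate block, 0 with no filter, 1 with a stricter filter, 4 with a floor at 8, 7 with log2(value + 8), 1 after scaling to one median, 7 with array weights and 1 to 4 with 1 array left out. For HY_low minus OT1 they numbered 2, but 8 with the block and 4 with array weights. For HY_high minus OT1 they numbered 15, but 118 with the block, 9 with no filter, 8 with a floor at 8, 64 with array weights and 6 to 17 with 1 array left out.

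Changes of sign were these. For HY_high minus HY_low, the log2 difference of Gata3 was -0.033 to 0.77 with 1 array left out. Runx1 gave 0.043 with log2(value + 8), 0.026 with array weights, 0.66 with the block and no number 2, 0.092 with the block and no number 4 and -0.47 to 0.42 with 1 array left out. The dimmer Ets1 probe set gave -0.80 to 0.018 with 1 array left out. Ets2 gave -0.16 with a floor at 8 and -0.16 with a floor at 8 and the block. For HY_low minus OT1, the log2 difference of Gata3 was -0.042 to 0.80 with 1 array left out. Runx1 gave -0.019 with the block and no number 2 and -0.025 to 0.48 with 1 array left out. The second Lef1 probe set gave 0.20 with the block and no number 1 and -0.32 to 0.26 with 1 array left out. Satb1 gave -0.044 with log2(value + 8), -0.049 after quantile normalization, -0.26 with array weights, -0.30 with the block and no number 1, -0.049 after quantile normalization and the block and -1.04 to 0.80 with 1 array left out. The brighter Ets1 probe set gave 0.29 with the block and no number 2 and -0.79 to 0.19 with 1 array left out. Ets2 gave 0.00495 with a floor at 8 and 0.00495 with a floor at 8 and the block. For HY_high minus OT1, the log2 difference of Runx1 was -0.17 with the block and no number 1, -0.17 with the block and no number 3 and -0.25 to 0.64 with 1 array left out. The first Lef1 probe set gave 0.26 with the block and no number 3, 0.15 with the block and no number 4 and -0.83 to 0.35 with 1 array left out. The brighter Ets1 probe set gave -0.058 to 1.17 with 1 array left out. The dimmer Ets1 probe set gave -0.23 with array weights, -0.16 with the block and no number 1 and -0.38 to 0.64 with 1 array left out. Ets2 gave 0.019 with array weights, 0.14 with the block and no number 1 and -0.23 to 0.16 with 1 array left out. The cause was not tested. Values near the lowest intensity, as of Runx1 and the dimmer Ets1, carry little information on direction.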
